A study of Mus musculus with 38 samples.

Results

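The genes described here are 40 genes of the cell cycle, named for their roles in DNA replication (16 genes) and in mitosis (24 genes). Each was read from the probe of highest mean intensity in the non-normalized data over all 38 arrays. Of the 40, 36 had a probe paired with their symbol, and Mcm3, Ccnb1, Kif20a and Mki67 had none. A detection filter (below) kept 32 of them, of 11164 named genes kept in all. The other 4 stayed near background: Chek1, Ccnb2 and Kif11 were detected on 0 arrays and Ube2c on 2. Of the 32 genes kept, 28 were detected on every array, and the exceptions were Cdc45 (35 arrays), Bub1 (27), Pttg1 (21) and Ccna2 (4). These counts use detection p-values smoothed over intensity (below). With the p-values as deposited, several of the 28 passed on few arrays, among them Cdk1 (0), Nusap1 (1), Cenpe (1), Prc1 (8) and Cdc6 (9). Others, such as Birc5 and Mcm2, still passed on all 38.

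The series measured spleen RNA of 38 BXD strains, a panel of inbred mice descended from a cross of C57BL/6 with DBA/2, in which every strain is fixed for its own mixture of parental alleles. Each strain had 1 Illumina Mouse-6 v1.1 array, hybridised with RNA pooled from 2 mice that shared strain and sex, aged 8 to 12 weeks. The labels give 35 arrays as male, and BXD18, BXD38 and BXD96 as female. All arrays form 1 group, so the comparisons are across strains, and 34 of the strains also had flow cytometry of lymphocytes.

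A strain is represented by a single pool, so the spread between strains includes technical error. Each array had 13791 to 15732 probes detected, and median intensity ran from 85.0 to 121.6 across arrays. The spleen's defining lymphocyte genes were present: the B cell receptor gene Cd79a and the T cell receptor gene Cd3e were detected on all 38 arrays. Summed intensity of 15 pancreas genes ran from 1405 to 806758 across arrays, so the pools differed in how much pancreas RNA they held.

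Dividing cells first load the Mcm helicase onto DNA in G1, with Cdc6 as a loader, and then fire it with Cdc45 and Mcm10. S phase further draws on enzymes that supply nucleotides and on the sliding clamp Pcna. Mitosis is driven by Cdk1 with its cyclins and by the Aurora and Polo kinases, and is closed by Cdc20 and the anaphase-promoting complex. In mice, unlike humans, the red pulp of the adult spleen keeps making red blood cells, and erythroid precursors divide as they mature. Lymphocytes of the germinal centre and granulocyte precursors are other dividing cells that a spleen can hold.

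Across the 38 strains the cell cycle genes varied together, and most of them varied strongly. The baculoviral repeat gene Birc5 (survivin), a subunit of the chromosomal passenger complex, had a log2 intensity of 8.89 on the lowest array, 10.69 at the median and 12.11 on the highest. That is a 9.32-fold range, and its SD over strains (0.82) lay at the 95.8th percentile of all kept probes. BXD68 was lowest and BXD24 highest. Top2a, the topoisomerase that untangles replicated DNA, ran from 7.89 in BXD19 through a median of 9.14 to 10.43 in BXD12, a 5.82-fold range. The same few strains sat at the ends for most of these genes. BXD68 was the lowest array for 11 of the 32 genes, and BXD24 the highest for 15.

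The range was narrower for some members. Mcm4, a subunit of the replicative helicase, ran from 11.28 through 11.86 to 12.56 (2.43-fold), and its SD lay at the 57.5th percentile. Bub1, a kinase of the spindle checkpoint, ran from 5.25 through 5.72 to 6.24, close to background, with an SD at the 34.6th percentile. A mean of z-scores over the 28 genes detected on every array, called the cell cycle score, was highest in BXD24 (1.63), BXD12 (1.45), BXD32 (1.31), BXD33 (1.29) and BXD45 (1.14). It was lowest in BXD68 (-1.74), BXD75 (-1.46), BXD48 (-1.32), BXD98 (-1.21) and BXD19 (-1.16). The score did not follow array brightness (r = 0.012 with log2 median intensity, rho = -0.018, n = 38, a description). The 3 female arrays had scores of 0.241 (BXD18), 0.008 (BXD38) and -0.55 (BXD96), inside the range of the male arrays.

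**Figure D1:**
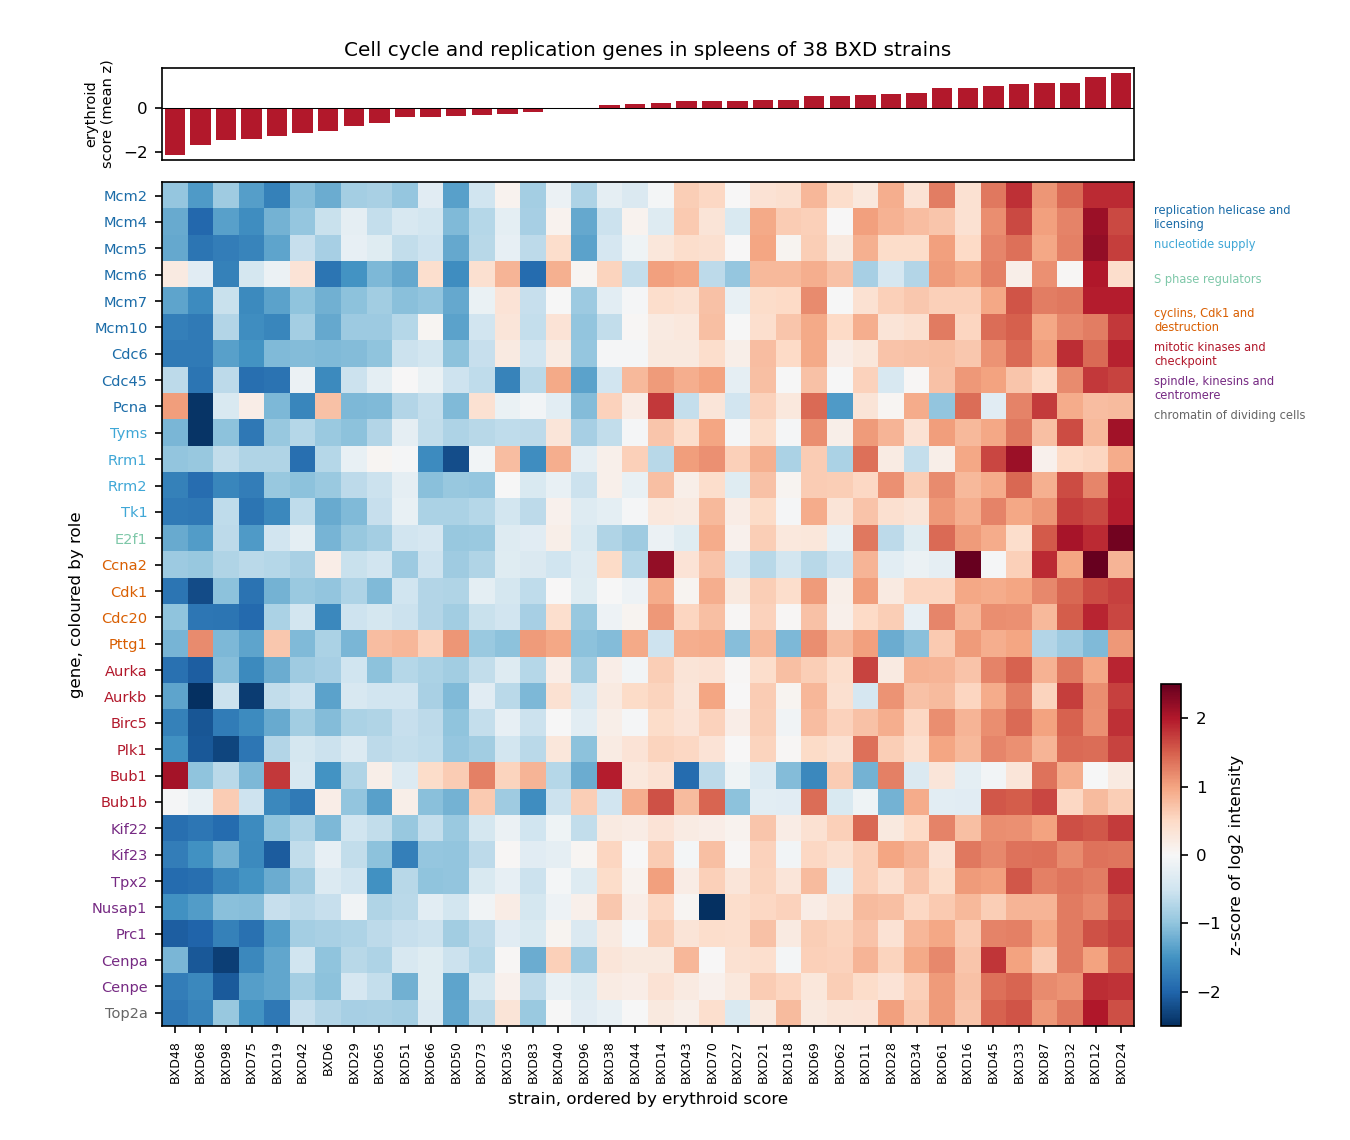
Each row is 1 of the 32 cell cycle genes kept, coloured by role, and each column 1 of the 38 strains, ordered from the lowest erythroid score (left) to the highest (right). Colour gives the z-score of log2 intensity and the bars on top give the erythroid score. Most rows run from blue to red, whereas Bub1 and Pttg1 do not, and Nusap1 has 1 dark blue cell in BXD70.

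The first comparison asked whether cell cycle genes follow the red cell lineage across strains. An erythroid score was taken as the mean z-score of 26 erythroid genes (of 33 listed, 28 with a probe). They include Gata1, the lineage's master regulator, Klf1, the membrane protein genes Slc4a1 and Ank1, and the heme enzyme gene Uros. The score ran from -2.15 in BXD48 to 1.58 in BXD24. Of the 32 cell cycle genes, 30 rose with it and 0 fell, at an adjusted p under 0.05 from limma over 17583 probes. Of all probes, 16.7 percent were called, 9.02 percent with a positive slope. The median slope of the 32 genes was a log2 difference of 0.56 per SD of the score, and that of all probes was -0.016. In a bulk spleen sample, fewer cells of a type and less RNA per cell cannot be told apart.

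Genes of the replication machinery all rose: 14 of 14 tested, with a median slope of 0.47. Cdc6, which loads the helicase, had log2 intensities of 7.14 on the lowest array (BXD48), 8.66 at the median and 10 on the highest (BXD24). Its slope was 0.73 ± 0.040 (SE, n = 38; adjusted p = 4.12e-18, limma). Rrm2, the regulated subunit of ribonucleotide reductase, ran from 7.05 (BXD68) through 8.52 to 9.99 (BXD24), with a slope of 0.72 ± 0.042 (adjusted p = 3.58e-17, limma). For both genes the high and low ends were held by the strains at the ends of the erythroid score. All 9 helicase and licensing genes tested rose (median slope 0.43), among them Mcm10 (0.68 ± 0.049), Mcm2 (0.51 ± 0.041) and Mcm5 (0.43 ± 0.036). All 4 nucleotide supply genes rose as well (median slope 0.56): Rrm2, the thymidine kinase gene Tk1 (0.58 ± 0.035), the thymidylate synthase gene Tyms (0.55 ± 0.046) and Rrm1 (0.34 ± 0.072). E2f1, a transcription factor for S phase genes, rose by 0.37 ± 0.045 per SD.

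The smallest slopes among genes detected on every array were of mixed kind. Pcna ran from 6.79 (BXD68) through 7.74 to 8.36 (BXD14), and its slope was 0.17 ± 0.054 (adjusted p = 0.0228, limma). BXD14 lay near the middle of the erythroid score. Mcm4 had a slope of 0.28 ± 0.026 (adjusted p = 1.73e-11), small in size yet with little scatter about the line. Bub1b, the checkpoint kinase BubR1, ran from 7.75 (BXD42) through 8.94 to 10.27 (BXD87), with a slope of 0.33 ± 0.11 (adjusted p = 0.0239, limma).

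Of the mitotic genes, 16 of 18 tested rose, with a median slope of 0.59. Birc5 had the largest slope of all members, 0.79 ± 0.035 (adjusted p = 2.73e-21, limma). Kif22, a kinesin that moves chromosome arms, ran from 8.48 (BXD98) through 10.09 to 11.30 (BXD24), with a slope of 0.73 ± 0.039 (adjusted p = 1.21e-18, limma). Prc1, which bundles the midzone microtubules, had the smallest p of the members (slope 0.70 ± 0.027, adjusted p = 3.7e-23, limma). All 7 spindle, kinesin and centromere genes tested rose (median slope 0.63), as did Top2a (0.62 ± 0.042). Cdk1 rose by 0.68 ± 0.038 and Cdc20, the activator of the anaphase-promoting complex, by 0.57 ± 0.048. Of the mitotic kinases, Plk1 (0.66 ± 0.049), Aurka (0.60 ± 0.039) and Aurkb (0.49 ± 0.048) rose. Cyclin A2 (Ccna2) also rose (0.32 ± 0.068), but it was detected on only 4 arrays and its slope is mostly over values near background.

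**Figure D2:**
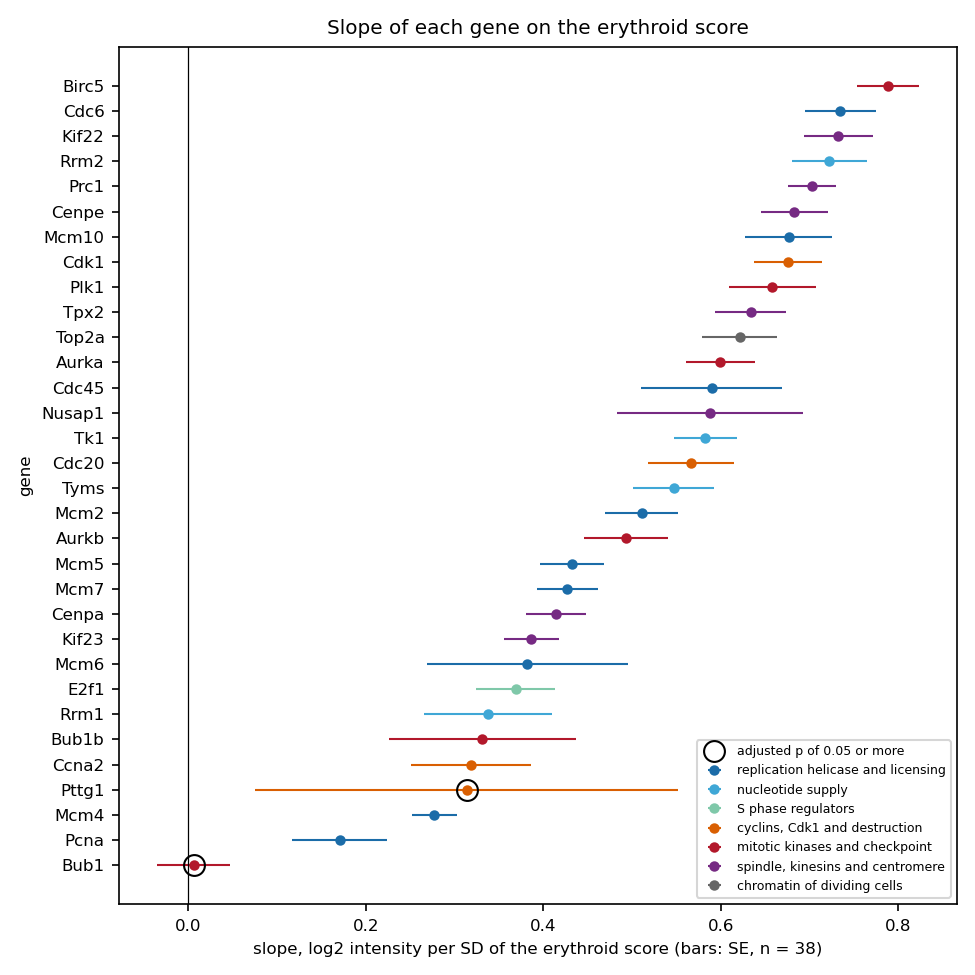
Points give the slope of each of the 32 cell cycle genes on the erythroid score, in log2 intensity per SD, with bars of 1 SE (n = 38 arrays) and colours by role. Slopes run from 0.17 for Pcna to 0.79 for Birc5 among genes detected on every array, and the circled genes, Bub1 and Pttg1, did not pass the test.

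Neither of the 2 members that were not called was detected on every array, nor were Cdc45 and Ccna2, which were called. Bub1 had a slope of 0.0059 ± 0.041 (adjusted p = 0.95, limma) at levels close to background. Pttg1 (securin, the inhibitor of separase) had a slope of 0.31 ± 0.24 (adjusted p = 0.413, limma), and its values fell into separate clusters. On 20 arrays it lay between 7.47 and 8.39 (median 8.01), and was detected on all of them. On the other 18 it lay between 4.60 and 5.81 (median 4.97), and was detected on 1. Erythroid scores covered a similar range in both clusters, from -1.69 to 1.58 in the higher and from -2.15 to 1.37 in the lower. Within the higher cluster r with the erythroid score was 0.126 (permutation p = 0.598; rho = 0.159, permutation p = 0.497; r = 0.279 without the 2 farthest strains). Within the lower it was 0.312 (permutation p = 0.211; rho = 0.356, permutation p = 0.149; r = 0.229 without the 2 farthest strains). Over these 2 relations the adjusted p for r was 0.598 in the higher cluster and 0.422 in the lower.

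Nusap1, a microtubule-binding protein of the spindle, was decided in part by 1 array. It had a log2 intensity of 6.12 in BXD70, against 8.32 in the next lowest strain, BXD48, a median of 9.79 and 11.05 in BXD24. BXD70 was not among the 3 lowest strains for any other spindle gene. In the authors' processed table BXD70 was also lowest (7.96, against 8.67 for the next). The slope was 0.59 ± 0.10 with BXD70 and 0.63 ± 0.035 without it (adjusted p = 4.34e-05 and 1.21e-17, limma).

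**Figure D3:**
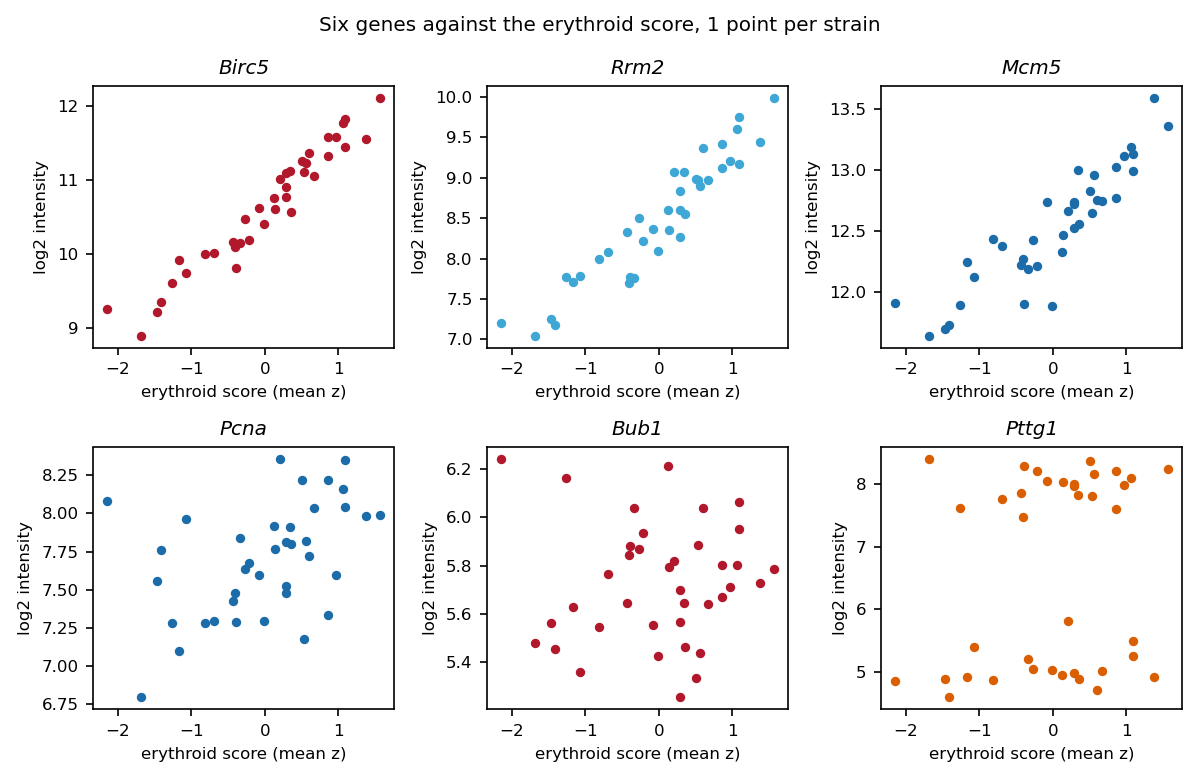
Each point is 1 strain: log2 intensity (vertical axis) of Birc5, Rrm2, Mcm5, Pcna, Bub1 and Pttg1 against the erythroid score (horizontal axis, mean z-score). Birc5, Rrm2 and Mcm5 climb along a line, Pcna climbs with more scatter, Bub1 scatters between 5.25 and 6.24 with no slope past the test, and Pttg1 splits into an upper and a lower band.

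Genes that move together were next set beside the letters upstream of their start sites. Promoters of many mitotic genes are known to carry CCAAT boxes and the cell cycle homology region (CHR), bound by the DREAM and MuvB complexes. Those of replication genes often carry E2F sites. Windows of 250 bases before to 50 after the start came from RefSeq (GRCm38.p6), and 35 of the 40 genes had one. Both strands were searched for the CCAAT box (CCAAT), the CHR (TTTGAA) and E2F (TTTCCCGC, TTTCGCGC, TTTGCCGC and TTTGGCGC). A match on one strand can overlap a match on the other, as in Mcm5.

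A CCAAT box and a CHR together were found in 14 of the 20 mitotic genes with a window (70 percent) and in 2 of the 15 replication genes (13.3 percent), against 8.0 percent of all 27025 genes. An E2F match was found in 5 of the 15 replication genes (33.3 percent) and in 1 of the 20 mitotic genes (5.0 percent), against 2.6 percent of all genes. Among the 9072 genes with a kept probe and a window, 6.0 percent had the CCAAT box with a CHR and 4.4 percent an E2F match. The first 4 sequences show the mitotic arrangement, as 160 bases that end just before the start, read 5' to 3', with every match to these 3 motifs in capitals.
Kif22, chr7:127042421-127042580, minus strand: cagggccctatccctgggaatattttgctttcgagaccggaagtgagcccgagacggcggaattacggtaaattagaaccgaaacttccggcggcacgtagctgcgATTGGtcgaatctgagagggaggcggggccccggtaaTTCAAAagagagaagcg
Cdc20, chr4:118437344-118437503, minus strand: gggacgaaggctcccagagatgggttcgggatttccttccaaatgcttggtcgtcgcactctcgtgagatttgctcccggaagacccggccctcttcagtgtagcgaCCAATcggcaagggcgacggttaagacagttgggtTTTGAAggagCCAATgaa
Cdk1, chr10:69352913-69353072, minus strand: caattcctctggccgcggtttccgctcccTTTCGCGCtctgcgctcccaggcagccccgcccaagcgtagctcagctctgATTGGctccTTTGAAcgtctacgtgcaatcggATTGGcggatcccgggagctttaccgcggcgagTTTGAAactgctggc
Top2a, chr11:99024190-99024349, minus strand: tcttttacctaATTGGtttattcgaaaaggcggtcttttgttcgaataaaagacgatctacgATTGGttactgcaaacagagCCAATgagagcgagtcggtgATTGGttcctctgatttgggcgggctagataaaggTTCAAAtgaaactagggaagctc
In Kif22, whose slope was among the 4 largest, the CCAAT box (read as ATTGG) begins at position -54 and the CHR (TTCAAA) at -17, where -1 is the last base printed. Cdk1 holds the CCAAT box and the CHR, and an E2F match as well.

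The next 3 sequences are replication genes with an E2F match and no CHR. Cdc6 rose by 0.73 per SD, Mcm5 by 0.43 and Mcm6 by 0.38, so the slopes differed although all have the motif.
Mcm5, chr8:75109349-75109508, plus strand: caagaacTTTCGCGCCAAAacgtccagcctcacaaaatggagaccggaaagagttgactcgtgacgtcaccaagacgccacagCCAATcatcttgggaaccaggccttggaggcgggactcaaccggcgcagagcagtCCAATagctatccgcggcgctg
Mcm6, chr1:128359706-128359865, minus strand: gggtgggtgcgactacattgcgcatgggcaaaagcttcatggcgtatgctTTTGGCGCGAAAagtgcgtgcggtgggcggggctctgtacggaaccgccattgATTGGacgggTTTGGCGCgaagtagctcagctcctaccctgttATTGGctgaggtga
Cdc6, chr11:98907991-98908150, plus strand: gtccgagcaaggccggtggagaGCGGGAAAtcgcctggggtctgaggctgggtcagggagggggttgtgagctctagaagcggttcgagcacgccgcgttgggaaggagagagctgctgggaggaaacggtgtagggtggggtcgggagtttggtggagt
In Mcm5 the E2F matches on opposite strands overlap and run together in capitals, and the same holds for the more distant matches of Mcm6.

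The last 3 sequences lack a CHR and an E2F match. Birc5 had the largest slope of the 32 genes, and Bub1 and Pttg1 were the 2 that were not called. Bub1 has CCAAT boxes, and Birc5 and Pttg1 have none of the motifs in this window.
Birc5, chr11:117849077-117849236, plus strand: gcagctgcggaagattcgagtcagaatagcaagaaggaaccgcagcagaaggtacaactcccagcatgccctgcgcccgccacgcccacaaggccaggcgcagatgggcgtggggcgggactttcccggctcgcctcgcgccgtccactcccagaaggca
Bub1, chr2:127831860-127832019, minus strand: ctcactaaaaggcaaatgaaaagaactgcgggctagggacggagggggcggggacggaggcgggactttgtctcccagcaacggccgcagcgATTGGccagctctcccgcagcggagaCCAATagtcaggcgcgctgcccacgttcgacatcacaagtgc
Pttg1, chr11:43425982-43426141, minus strand: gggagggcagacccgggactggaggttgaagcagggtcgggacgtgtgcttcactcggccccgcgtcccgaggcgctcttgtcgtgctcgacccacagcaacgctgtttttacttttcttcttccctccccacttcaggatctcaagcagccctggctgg
GATA motifs (AGATA or TGATA, then A or G, on both strands), the core bound by the erythroid factor Gata1, were in 5 of 35 cell cycle genes (14.3 percent). They were in 15 of the 19 erythroid genes with a window (78.9 percent) and in 33 percent of all genes. Among the genes with a kept probe and a window the share was 24.4 percent. A match is a description of letters and no evidence of binding.

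Coexpression of the members was described over all 496 pairs of the 32 genes. The median Pearson r over the 38 arrays was 0.822, with a range from -0.193 to 0.981, and 482 pairs were positive. In 379 pairs (76.4 percent) r was over 0.5, against 2.44 percent of pairs among all 11164 genes, whose median r was 0.01. Replication genes and mitotic genes did not form separate blocks. Median r was 0.819 within the replication genes, 0.826 within the mitotic genes and 0.822 between the classes. Scores of the 2 classes had r = 0.974 (rho = 0.971, n = 38). The arrays share library and normalization, so these are descriptions.

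The closest pair was Birc5 and Prc1 (r = 0.981, rho = 0.976, r = 0.976 without the 2 farthest strains), a passenger complex subunit and a midzone protein. Rrm2 and Birc5 (r = 0.979, rho = 0.972), and Kif22 and Prc1 (r = 0.971, rho = 0.968), came next. For all 3 pairs the permutation p was 1e-05, the least that 100000 permutations allow, and 2e-05 adjusted over the 6 pairs named. The pairs were chosen for their r out of 378 among genes detected on every array, so these p are no independent evidence. The 2 strains left out differ by pair, being those farthest from the median of the gene named first.

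Of the 3 pairs of lowest r among these 378, 2 hold Nusap1, whose value on BXD70 was its lowest. Bub1b and Nusap1 had r = 0.115 (permutation p = 0.498; rho = 0.3, permutation p = 0.0667; r = 0.056 without BXD14 and BXD87). Without BXD70 their r was 0.384, no longer the lowest of the 378 (n = 37). Rrm1 and Nusap1 had r = 0.307 (permutation p = 0.0603; rho = 0.52, permutation p = 0.00099; r = 0.272 without BXD33 and BXD50), and r = 0.597 without BXD70. Mcm6 and Pcna had r = 0.288 (permutation p = 0.0805; rho = 0.309, permutation p = 0.0589; r = 0.363 without BXD6 and BXD83). Without BXD70 theirs was the lowest r, at 0.296.

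Subunits of 1 complex were not equally alike. Mcm2, Mcm4, Mcm5 and Mcm7, which sit in the same helicase ring, had r from 0.92 to 0.97 in their 6 pairs. Mcm6 belongs to the same ring, yet its r with the other 4 lay between 0.473 and 0.589. Its log2 intensity ran from 8.28 in BXD83 through 9.98 to 11.43 in BXD12, an 8.88-fold range, wider than the 4.03-fold range of Mcm2. Its slope on the erythroid score was 0.38 ± 0.11 (adjusted p = 0.0151, limma). Mcm6 values differed between strains of like cell cycle score. At high scores they were 11.43 in BXD12 and 10.84 in BXD45, against 10.17 in BXD24, 9.95 in BXD33 and 9.86 in BXD32. At low scores they were 9.6 in BXD68 and 9.47 in BXD75, against 8.58 in BXD50 and 8.47 in BXD98. All the low-scoring strains named lay below all the high-scoring ones. These strains were picked by their Mcm6 values, and the cause of the lower r of Mcm6 was not tested. The members of lowest median r with the others were Bub1 (0.016), Pttg1, whose clusters are given above, and Bub1b (0.465). Bub1b had r = 0.452 with the erythroid score, and the cause of its lower r was not tested.

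After the erythroid score was taken out of each gene by regression, the median r of the 496 pairs was 0.319, and 440 pairs stayed positive. Then 23.2 percent of pairs were over 0.5, against 1.94 percent of all gene pairs. The median was 0.414 within the replication genes and 0.235 within the mitotic genes. The highest of these residual correlations were Mcm4 with Mcm5 (r = 0.854, rho = 0.798), Plk1 with Kif22 (r = 0.803, rho = 0.782) and Rrm2 with Birc5 (r = 0.792, rho = 0.816). Each had a permutation p of 1e-05, the smallest possible, again in pairs chosen for their r. Without the 2 farthest strains r was 0.789, 0.761 and 0.775 in that order.

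**Figure D4:**
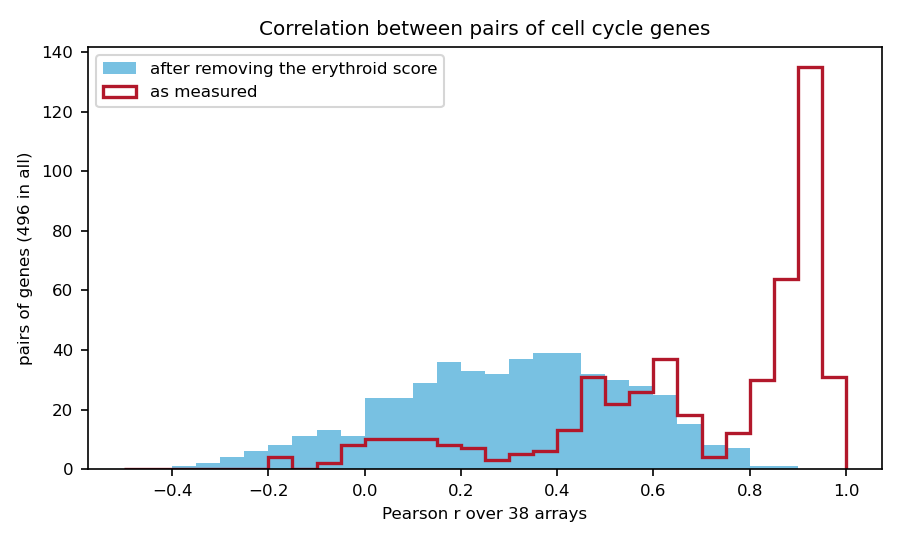
The histograms count the 496 pairs of cell cycle genes by Pearson r over 38 arrays, as measured (red outline) and after the erythroid score was removed from each gene (blue). As measured, 379 pairs lie over 0.5 with a peak near the right end and a smaller share around 0; after removal the pairs form 1 broad hump with a median of 0.319.

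Coexpression was also tested in 1 fit over all probes with Top2a as predictor, the first detected on every array of 3 standard markers of dividing cells (Mki67, Top2a and Birc5). Of the 31 other members, 29 rose with Top2a and 0 fell, with a median slope of 0.54 per SD of Top2a. Among all probes 17.1 percent were called, 8.86 percent with a positive slope. With the erythroid score in the same model, 3 members were still called, against 0.444 percent of all probes. All 3 belong to the helicase or its activation: Mcm2 (0.49 ± 0.075, adjusted p = 0.00032), Mcm10 (0.52 ± 0.10, adjusted p = 0.00964) and Mcm7 (0.36 ± 0.073, adjusted p = 0.0133; limma, n = 38). The centromere kinesin Cenpe (0.34 ± 0.085, adjusted p = 0.0536) and Mcm4 (0.23 ± 0.057, adjusted p = 0.0546) came closest among those that did not pass.

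The cell cycle score had r = 0.953 with the erythroid score (rho = 0.963, n = 38; r = 0.956 without BXD48 and BXD68, the 2 strains farthest from its median). Single erythroid genes differed in how closely they followed it. Uros had r = 0.969, Gata1 0.957, the water channel gene Aqp1 0.955 and the adducin gene Add2 0.953. Values were lower for Alas2 and a globin gene: Alas2, the erythroid enzyme of heme synthesis, had r = 0.635, and the globin gene Hba-a1 r = -0.061. Hba-a1 ran only from 15.77 to 15.94, at the top of the scale, where its probe can show little difference.

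Other cell types were then set beside the erythroid score. Scores of the same kind had r with the erythroid score of -0.682 for B cells, -0.489 for germinal centre genes, -0.407 for T cells, 0.412 for granulocyte progenitors and 0.266 for neutrophils. On the B cell score, 24 of the 32 members fell and 0 rose, with a median slope of -0.37; 14.2 percent of all probes were called, 6.31 percent with a negative slope. Aurka (-0.46 ± 0.072), Kif22 (-0.55 ± 0.087) and Rrm2 (-0.55 ± 0.087) were among them. With the erythroid score in the model 0 members were called on the B cell score (limma; median slope -0.0013). Of all probes, 0.813 percent were then called, against 14.2 percent without it.

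On the germinal centre score 15 members fell and 0 rose (5.9 percent of all probes were called, 2.98 percent with a negative slope). Their median slope was -0.27. Without the 2 farthest strains 4 fell (3.18 percent of all probes were called) and the median slope was -0.23. With the erythroid score in the model 0 fell (0.262 percent of all probes were called) and the median slope was -0.016. The germinal centre score had r = 0.675 with the T cell score and 0.259 with the B cell score. On it 10 of 12 T cell genes rose, and 0 of 13 B cell genes were called. On the T cell score, Mcm7 (-0.26 ± 0.064), Cdc6 (-0.39 ± 0.11) and Mcm2 (-0.27 ± 0.080) fell (4.44 percent of all probes were called, 1.59 percent with a negative slope). The median slope was -0.24. With detection p-values as deposited 5 members fell (4.41 percent of all probes were called). Without the 2 farthest strains 0 fell (1.66 percent of all probes were called) and the median slope was -0.20. With the erythroid score in the model 0 fell (1.35 percent of all probes were called) and the median slope was -0.033. On the granulocyte progenitor score, 6 members rose: Ccna2, E2f1, Cdk1, Tyms, Cdc45 and Aurka, with slopes from 0.26 (E2f1) to 0.41 (Cdc45), against 1.17 percent of all probes called, 0.853 percent with a positive slope. This count was 2 with detection p-values as deposited and 0 with the erythroid score in the model. Of all probes, 0.836 and 0.518 percent were called in that order.

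On the neutrophil, plasma cell, megakaryocyte, macrophage and pancreas scores limma called 0 members. At an unadjusted p under 0.05 there were 6, 0, 7, 1 and 0 of 32 members in that order. Of all 17583 probes, 1397, 1809, 2583, 2737 and 2395 had such a p. Of all probes, 0.472, 0.165, 0.66, 0.62 and 2.39 percent were called.

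These other lists were measured beside the erythroid result. Of the germinal centre list, 4 of 10 genes were scored. Of the B cell list, 13 of 15 genes were scored, with summed intensity from 36489 to 100121 across arrays. Of the T cell list it was 12 of 15 (10265 to 39409), of the granulocyte progenitor list 7 of 8 (1073 to 19495), and of the neutrophil list 10 of 12 (12847 to 182798). The defining progenitor genes Mpo and Elane were detected on all 38 arrays. With the erythroid, granulocyte progenitor, neutrophil, B cell and T cell scores in 1 model, 24 of the 32 members still rose with the erythroid score and 0 fell. Their median slope was 0.47, and 3.98 percent of all probes were called, 3.73 percent with a positive slope. Birc5 (0.66 ± 0.055), Prc1 (0.66 ± 0.045) and Cdk1 (0.62 ± 0.053) had the largest slopes among members detected on every array.

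**Figure D5:**
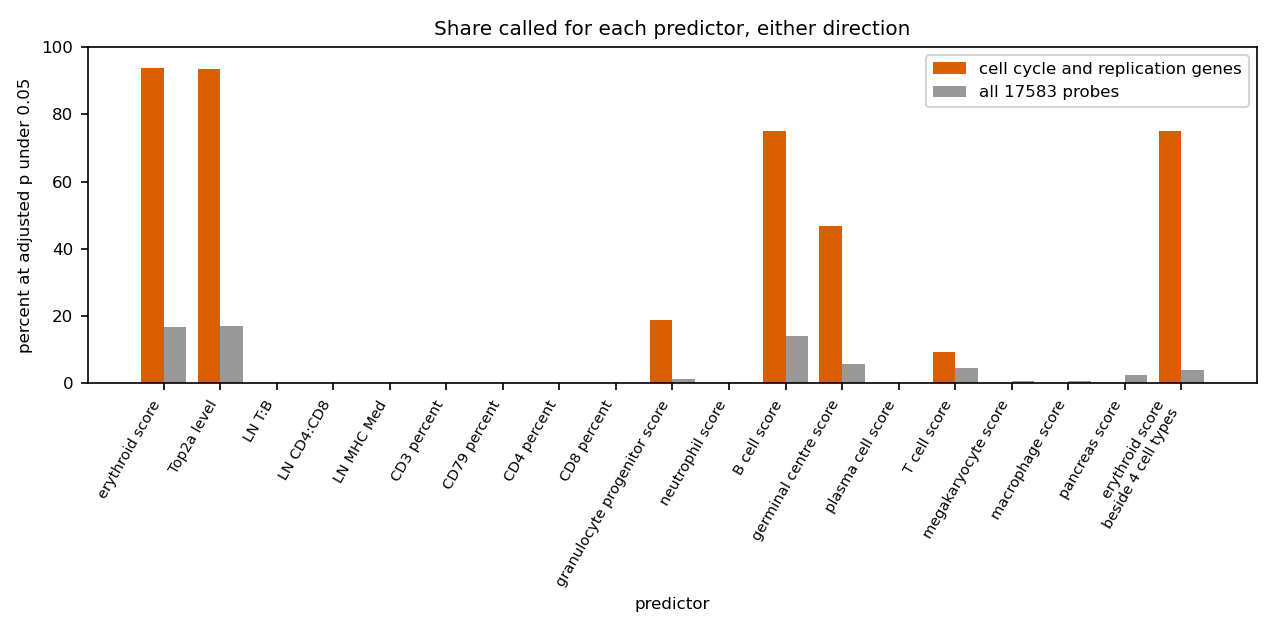
Bars give the percent called at an adjusted p under 0.05 in either direction, for the cell cycle genes (orange, left) and for all 17583 probes (grey, right), for each predictor on the horizontal axis. The orange bars are tall for the erythroid score (30 of 32 genes), Top2a (29 of 31) and the B cell score (24 of 32), and at 0 for the 7 flow cytometry traits.

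The series also set spleen expression against lymphocyte subsets counted by flow cytometry, so the members were fitted on each trait. Of the 7 traits, 3 are natural log values: T over B cells (LN T:B, from CD3+ and CD79+ cells), helper over cytotoxic T cells (LN CD4:CD8), and the median class II MHC level of B cells (LN MHC Med). No member was called for any of the 7 traits: limma gave 0 of 32 each time. Of all probes, 0.148 percent were called for LN T:B, 0.233 percent for LN MHC Med and 0 percent for LN CD4:CD8. For the percentages it was 0 for CD3, 0.108 for CD79, 0 for CD4 and 0.00569 for CD8.

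Slopes leaned one way all the same. On LN T:B 30 of 32 were positive (median 0.15), and 3 had an unadjusted p under 0.05, as did 2209 of all 17583 probes. The smallest p was that of Plk1, the Polo kinase of mitotic entry, which ran from 8.22 (BXD98) through 10.05 to 11.10 (BXD24). Its slope was 0.26 ± 0.11 (adjusted p = 0.342, limma, n = 34). On LN CD4:CD8 all 32 slopes were positive (median 0.15), and 5 had an unadjusted p under 0.05, as did 1832 of all 17583 probes. Cenpa, the centromeric histone H3, had the smallest p there. It ran from 11.80 (BXD98) through 13 to 13.71 (BXD45), with a slope of 0.16 ± 0.073 (adjusted p = 0.467, limma).

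On LN MHC Med 30 of 32 slopes were positive (median 0.094). An unadjusted p under 0.05 was found for 0 members and for 983 of all 17583 probes. Cdc6 had the smallest p of the members (0.19 ± 0.13, adjusted p = 0.878, limma). The median slope was 0.15 on the CD3 percent, -0.13 on the CD79 percent, 0.14 on the CD4 percent (33 strains) and 0.049 on the CD8 percent. Unadjusted p was under 0.05 for 3, 0, 2 and 0 members in that order, and for 1946, 1798, 1803 and 1651 of all 17583 probes. Without the 2 strains farthest from the median of the trait, the median slope was -0.22 on CD79, 0.028 on CD4 and 0.11 on CD8. Plk1 had the smallest p for CD3 (0.26 ± 0.11, adjusted p = 0.395), CD79 (-0.23 ± 0.12, adjusted p = 0.49) and CD4 (0.26 ± 0.11, adjusted p = 0.449), and Bub1b for CD8 (-0.13 ± 0.12, adjusted p = 0.799; limma).

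With the erythroid score in the model the median slope was 0.0048 on LN T:B, 0.042 on LN CD4:CD8 and -0.0012 on LN MHC Med. The number of positive slopes was then 19, 26 and 16 of 32. On the percentages the median slope was 0.0077 for CD3, -0.0067 for CD79, 0.018 for CD4 and -0.0021 for CD8. The 32 genes move together, so a lean of many slopes is not many separate observations.

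Other genes of the same pathways were counted from lists. On the erythroid score 16.7 percent of all probes were called, 9.02 percent with a positive slope. Of 25 further replication genes, 19 were tested and 18 rose with that score, with a median slope of 0.33. The largest were Chaf1b, a subunit of the histone chaperone of replication (0.54 ± 0.047), Lig1, which joins Okazaki fragments (0.48 ± 0.039), and Pole, the leading strand polymerase (0.44 ± 0.042). The lowest was Pold1 (0.10 ± 0.038, adjusted p = 0.0586, limma). Of 28 further mitotic genes, 17 were tested and 14 rose (median slope 0.43), led by Anln (0.75 ± 0.031), Kif4 (0.69 ± 0.033) and Ckap2 (0.68 ± 0.056). Cks2 had the lowest slope (0.050 ± 0.043, adjusted p = 0.485).

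Regulators of G1 and cell cycle exit behaved less uniformly. Of 22 listed, 20 were tested: 12 rose, 1 fell, and the median slope was 0.099 (16.7 percent of all probes were called, in either direction). Cyclin E genes, which act at S phase entry, were at the top with Ccne1 (0.77 ± 0.049) and Ccne2 (0.66 ± 0.052), followed by E2f2 (0.42 ± 0.042). The gene that fell was Cdkn1c, the inhibitor p57 (-0.17 ± 0.051, adjusted p = 0.0147, limma). Inhibitors did not move as a group. Cdkn2c (0.40 ± 0.037, adjusted p = 1.75e-11) and Cdkn2d (0.26 ± 0.042, adjusted p = 5.72e-06) rose. Cdkn1a (-0.10 ± 0.065, adjusted p = 0.313) and Cdkn1b (0.028 ± 0.093, adjusted p = 0.89, limma) did not pass. Cyclin D genes went different ways: Ccnd3 rose (0.35 ± 0.053), whereas Ccnd1 (-0.10 ± 0.055, adjusted p = 0.206) and Ccnd2 (-0.076 ± 0.033, adjusted p = 0.111) did not pass.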

How the data were processed

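The main table deposited by the authors gives each probe's intensity before normalization beside its detection p-value, per the file headers. A second table deposited by the authors holds processed values on a log2-like scale, and lumi is the tool listed by the submitters' processing notes. Per the labels, CD3, CD79, CD4 and CD8 are percent of lymphocytes, and the LN traits are natural log values. The deposited CD4 column was handled as a score, since its BXD33 entry lies above 100 and was not used.

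The deposited detection p-values are not a function of intensity (Cdk1, mean intensity 642, passed 0.01 on 0 arrays), so each was smoothed: probes were sorted by intensity and a running median taken over 201 of them. Background correction and quantile normalization were done in R 4.3.3 by limma 3.58.1 (neqc, with an offset of 16), after reading with the data.table package (version 1.17.8). Probes with a smoothed p under 0.01 on at least 3 arrays were kept, 17583 of 34492. In GEO's platform annotation 20256 probes have a single symbol, 9 have several and 14227 have none.

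By lmFit and eBayes, log2 intensity was fitted on each predictor in SD units, with Benjamini-Hochberg adjustment over all kept probes (threshold 0.05); errors are SE. P-values measure the spread between strains, each with 1 pool, and the number of arrays limits precision. Correlations used 100000 permutations, two-sided. The fits were tested on simulated data.

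Genes named in full were those of largest and smallest slope on the erythroid score, of smallest p per trait, and of highest and lowest r, with Top2a; Mcm2, Mcm6, Nusap1, Pttg1 and the other members given with values were named after their values were seen. Promoters printed were chosen after their motif matches were seen. The tenth gene in likeness to the cell cycle score is not reported here. Members and lists were chosen with earlier results of these data known.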

Additional observations from a re-analysis of the deposited data

How the results depend on the processing

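The erythroid count of 30 members was 28 to 30 under 13 alternatives (other background corrections, the authors' table, filters, sex, male arrays only, pancreas or granulocyte progenitor score, left-out strains, array brightness), with median slopes from 0.41 to 0.58. The count was 28 of 28 tested on probes detected on every array, and 28 of 32 with the granulocyte progenitor score as covariate. Of all probes, 8.08 percent (no filter) to 23.9 percent (probes detected on every array) were called. The erythroid count stayed 30 without BXD70, without the 5 strains of lowest erythroid score, and with median intensity as covariate. These 3 were chosen after seeing the data. The Top2a count was 29 of 31, or 27 of 27 on probes detected on every array. With the erythroid score as covariate it was 3 of 31. Of all probes, 8.12 to 24.2 percent were called, and 0.444 percent with that covariate. Counts on other scores moved more. With the erythroid score as covariate they were 0 for the granulocyte progenitor, B cell, germinal centre and T cell scores, and 1 for the macrophage score. Of all probes, 0.518, 0.813, 0.262, 1.35 and 1.15 percent were then called, in that order. With deposited detection p-values the counts were 2 for the granulocyte progenitor and 5 for the T cell score (0.836 and 4.41 percent of all probes). Without the 2 farthest strains they were 4 for the germinal centre and 0 for the T cell score (3.18 and 1.66 percent of all probes). The cause was not tested. Median r of the pairs lay between 0.808 and 0.857 in 6 alternatives, the highest without BXD70, an alternative chosen after seeing the data. The trait counts were 0 in every alternative run.

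No count of called members changed direction, but with the erythroid score as covariate the median slope changed sign where no member was called: to 0.037 for the plasma cell score (against -0.097), to -0.0012 for LN MHC Med (against 0.094) and to -0.0021 for CD8 (against 0.049). No paired analysis was possible because all arrays form 1 group with 1 array per strain. Depth is limited by signal over background: Bub1, Ccna2, Pttg1 and Cdc45 were not detected on every array, and 8 of the 40 genes gave no tested value.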

Other observations

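Among the genes outside the list whose levels were most like the cell cycle score, over 38 arrays and 11132 genes ranked by Pearson r, the 9 of highest r given here were again mostly genes of division. Blm, a helicase of recombination repair, had r = 0.98, the chromokinesin Kif4 r = 0.976, and Cdca5 (sororin, which holds sister chromatids together) r = 0.974. Kntc1, a kinetochore protein, had r = 0.973, the condensin subunit Smc2 r = 0.971, and Kif18b, a kinesin of astral microtubules, r = 0.971. The phosphatase Cdc25c had r = 0.969 and Anln (anillin) r = 0.968. The exception in role was Uros, an enzyme of heme synthesis, with r = 0.969. These are descriptions, ranked by likeness and given no test.

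Second probes were kept for 2 members. The second Cenpa probe had r = 0.864 with the first (rho = 0.874, n = 38) and a slope on the erythroid score of 0.48 ± 0.053 (adjusted p = 1.82e-09, limma). The second Kif23 probe, of lower mean intensity (125.5, against 1241 for the first), had r = 0.568 with the first (rho = 0.556) and a slope of 0.16 ± 0.049 (adjusted p = 0.0188, limma). Both probes of each gene rose with the erythroid score, and those of Kif23 differed in size (0.16 and 0.39).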
